A study of Mus musculus with 19 samples.

Results

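Adiponectin (Adipoq), Fabp4, perilipin 1 (Plin1), Cidec, leptin (Lep), resistin (Retn), adipsin (Cfd), lipoprotein lipase (Lpl), Pparg and Cd36 are genes of the mammary fat adipocyte, and their levels were followed here across 19 mouse mammary tumours. The 10 genes were listed by name, and each was read from the probe set that carried its symbol alone and had the highest mean over the arrays. A probe set was found for 9 of the 10, among 22180 genes in all. Adipsin had no match in the probe annotation and was not analysed here. All tumours came from mice in which the MMTV promoter, active in mammary epithelium, drives an activated ErbB2 (Neu) together with Cre recombinase (NIC mice). The groups were 5 tumours with intact integrin genes (NIC WT, the controls), 4 with floxed integrin beta 1 (NIC itgb1 fl/fl), 4 with floxed integrin beta 3 (NIC itgb3 fl/fl) and 6 with both floxed genes. All 4 groups, controls included, carry activated ErbB2 and Cre. In which cells Cre acted was not measured here. No age of the mice was among the labels. Tumours are numbered within each group, and the numbers are names only. Total RNA of whole tumours was measured on Affymetrix whole-transcript arrays, and each value is a normalized log2 intensity, so a difference of 1 is a doubling. In such bulk RNA, fewer adipocytes and less of a transcript per adipocyte cannot be told apart. The labels identify tumours without saying whether each came from a separate mouse, so the p-values reflect the scatter among these tumours, and some of it may be technical.

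The mammary gland lies in a pad of white fat, and a growing tumour meets, surrounds or replaces these fat cells. An adipocyte takes up fatty acids that lipoprotein lipase frees from circulating triglyceride, carries them through CD36 and FABP4, stores them in a droplet coated by perilipin 1 and CIDEC, and secretes hormones such as adiponectin, leptin and resistin. The nuclear receptor PPARG, bound to DNA with RXR, and the C/EBP factors switch on most of these genes during fat cell differentiation. FABP4, CD36 and lipoprotein lipase are not confined to fat: capillary endothelium makes FABP4 and CD36, and macrophages make all of them.

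Both targeted genes were read first. Itgb1 was at 10.16 ± 0.19 (mean ± SD, n = 5) in controls, 8.70 ± 0.29 (n = 4) in Itgb1 knockouts and 8.32 ± 0.48 (n = 6) in the group labelled as double knockout. For Itgb3 the level was 8.12 ± 0.25 in controls and 7.01 ± 0.48 in Itgb3 knockouts, but at 8.13 ± 0.39 in the tumours labelled double knockout. The Itgb3 transcript therefore goes against the label of that group, which is called "labelled double knockout" throughout, and every direction drawn from it carries this limit. Luminal epithelial markers, which define the labelled tissue, had list means of 9.11 to 9.64 on all 19 arrays. Ckm, the muscle creatine kinase, was above 6 on 4 arrays (control 2, Itgb1 knockout 1, Itgb3 knockout 3 and labelled double knockout 2). The stromal gene Dcn was below 6 on 2 arrays (Itgb3 knockout 2 and labelled double knockout 5).

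The adipocyte label itself had an uneven basis in these tumours. A gene entered the tests where its value reached 4.38, the median of the whole table, on at least 4 arrays, and 7 of the 9 measured genes did. Fabp4, Lpl and Cd36 reached that level on all 19 arrays, Plin1 on 18, Retn on 15, Cidec on 14 and Pparg on 10. Leptin reached it on 3 arrays and adiponectin on 0, so the pair of hormones most restricted to fat is described by levels, and by a fit without the filter, only. The 3 genes that reached the level everywhere are the 3 named above as not confined to fat. The other genes were not examined for this, and the part of other cell types in reaching the level was not tested.

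Among the hormones, adiponectin, which raises insulin sensitivity, was at a log2 level of 3.13, 3.36, 3.45, 3.89 and 3.16 in controls 1 to 5 and at 3.22, 3.61, 4.33 and 3.90 in Itgb1 knockouts 1 to 4. Itgb3 knockouts were at 3.44, 3.43, 3.70 and 3.38, and the labelled double knockouts ran from 2.70 through a median of 3.17 to 3.77. The groups overlapped, and the highest tumour was Itgb1 knockout 3. Adiponectin stood 0.37 higher in Itgb1 knockouts than in controls (SE 0.231, 95% interval -0.12 to 0.85, n = 4 and 5), and 0.18 higher without Itgb1 knockout 3. Without the filter limma gave this difference an adjusted p of 0.939.

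Leptin, the satiety hormone whose level follows fat mass, was at 3.83, 3.76, 3.66, 4.0 and 3.44 in the controls and at 3.81, 4.13, 4.70 and 4.51 in the Itgb1 knockouts. It was at 3.76, 3.92, 4.31 and 4.0 in the Itgb3 knockouts and between 3.41 and 5.0, with a median of 3.94, in the labelled double knockouts. Its 3 values above 4.38 came from 1 labelled double knockout (number 3) and from Itgb1 knockouts 3 and 4. Leptin stood 0.55 higher in Itgb1 knockouts than in controls (SE 0.243, 95% interval 0.04 to 1.06). Without the filter the unadjusted limma p was 0.0350 and the adjusted p again 0.939.

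Resistin, an adipocyte hormone of the mouse, was measured at 4.75, 4.71, 4.78, 5.19 and 4.34 in controls, at 5.25, 5.01, 5.01 and 5.61 in Itgb1 knockouts and at 4.94, 4.33, 5.07 and 4.37 in Itgb3 knockouts. The labelled double knockouts spanned 4.14 to 5.85 with a median of 4.66, and thus held both the lowest and the highest tumour of the series. All 4 Itgb1 knockouts exceeded 4 of the 5 controls, and 2 of them exceeded control 4 as well. The Itgb1 knockout mean was 0.46 above control (SE 0.266, 95% interval -0.09 to 1.02, limma adjusted p = 0.982).

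The 250 bases before the annotated start of the hormone genes Lep and Adipoq are shown because both genes varied closely with the droplet gene Cidec below. They are RefSeq sequences of build GRCm38.p6, plus strand, at chr6:29059971-29060220 for Lep and chr16:23146286-23146535 for Adipoq. Capitals mark matches to TTGCNNAA, the core that C/EBP factors bind. The leptin match is its own reverse complement, begins 55 bases before the start, and has an E box (CANNTG) overlapping each end. The adiponectin window held no match to the core.
Lep: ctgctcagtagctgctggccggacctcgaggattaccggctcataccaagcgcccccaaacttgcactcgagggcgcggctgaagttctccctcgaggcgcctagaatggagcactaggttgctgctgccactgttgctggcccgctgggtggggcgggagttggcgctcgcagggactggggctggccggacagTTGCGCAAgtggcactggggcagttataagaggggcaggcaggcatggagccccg
Adipoq: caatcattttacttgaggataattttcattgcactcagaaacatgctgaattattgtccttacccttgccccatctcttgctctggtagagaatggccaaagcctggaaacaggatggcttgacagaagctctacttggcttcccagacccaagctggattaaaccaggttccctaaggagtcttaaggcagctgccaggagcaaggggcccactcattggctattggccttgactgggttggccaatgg

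**Figure D1:**
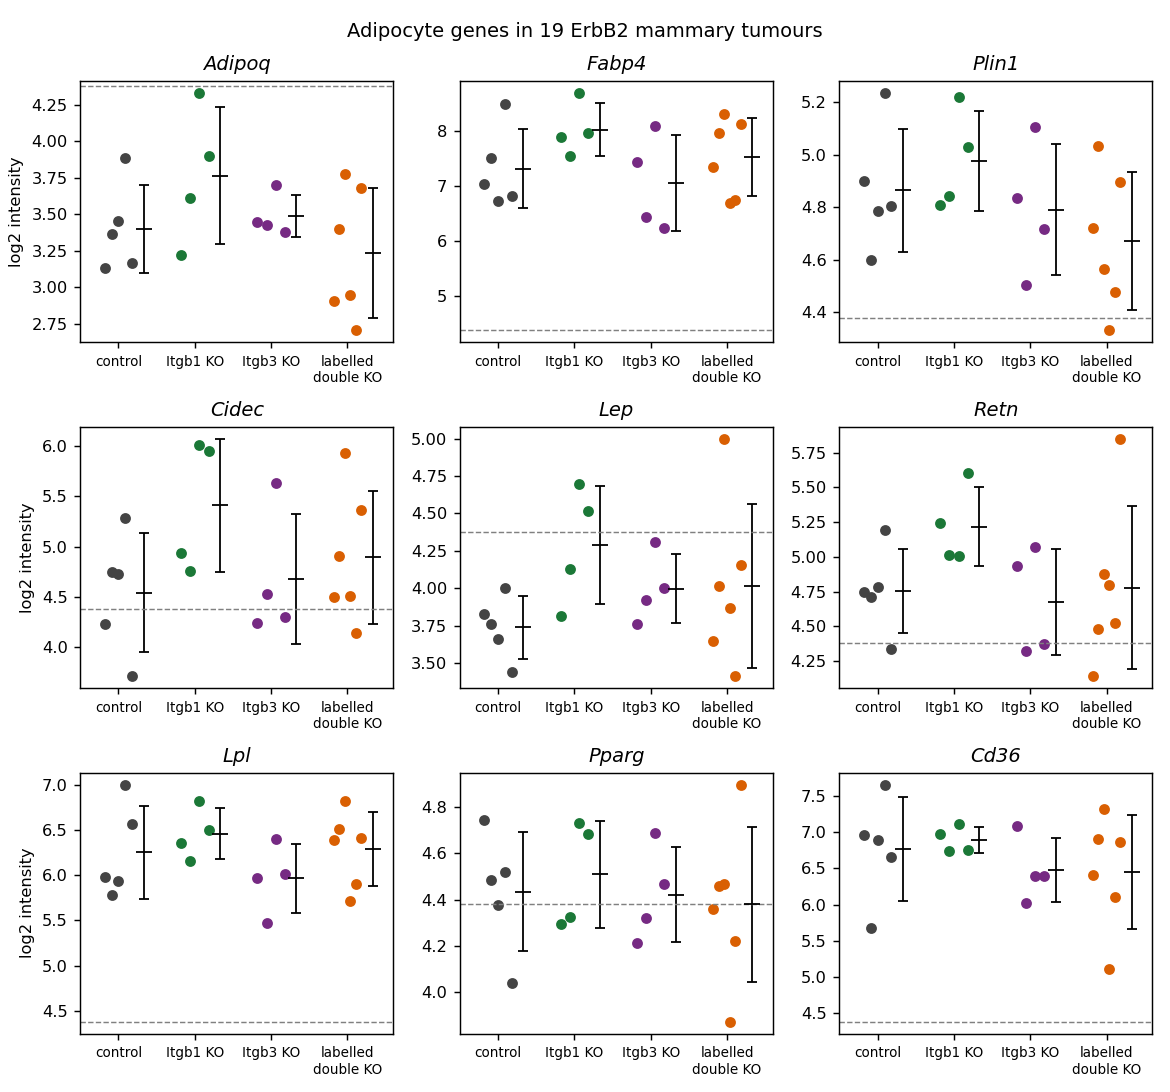
Log2 intensity of the 9 measured adipocyte genes in each of 19 tumours (points) by genotype, with the group mean and SD (bar and whiskers) and the level of 4.38 used as filter (dashed line). Each panel has its own axis, which does not start at 0; the groups overlap for every gene, and all 19 adiponectin values lie below the dashed line.

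The droplet coat genes came next. Perilipin 1, which guards stored triglyceride from lipases, was at 4.90, 4.60, 4.79, 5.23 and 4.80 in the controls and at 4.81, 4.84, 5.22 and 5.03 in the Itgb1 knockouts. Itgb3 knockouts were at 4.83, 4.50, 5.10 and 4.72, and labelled double knockouts between 4.33 and 5.03 with a median of 4.64. All tumours lay within 0.90 of each other on the log2 scale, 1.87-fold, the narrowest span of the 9 genes. The differences from control were 0.11 in Itgb1 knockouts (SE 0.159), -0.07 in Itgb3 knockouts (SE 0.159) and -0.19 in labelled double knockouts (SE 0.144), each within the spread of the tumours.

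Cidec, which fuses small droplets into the single large droplet of the white adipocyte, ranged more widely. It was at 4.24, 4.75, 4.73, 5.29 and 3.72 in controls and at 4.93, 4.76, 6.02 and 5.95 in Itgb1 knockouts. It was at 4.24, 4.53, 5.63 and 4.30 in Itgb3 knockouts, and at 4.14 to 5.93 with a median of 4.71 in labelled double knockouts. In each knockout group 1 or more tumours lay above all controls, beside others within the control range. The Itgb1 knockout mean was 0.87 above control (SE 0.390, 1.83-fold, 95% interval 0.05 to 1.69). Its unadjusted limma p was 0.0383, and its adjusted p over all genes was 0.982. In Itgb3 knockouts the difference from control was 0.14 (SE 0.390), and without Itgb3 knockout 3 it turned to -0.18.

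The upstream sequences of Plin1 and of 1 of the 2 annotated Cidec starts held the same C/EBP core as Lep. They are shown on the minus strand, 5′ to 3′, from RefSeq build GRCm38.p6, at chr7:79732777-79733026 for Plin1 and chr6:113434765-113435014 for Cidec, with the core in capitals. Plin1 has a core 187 and another 58 bases before its start, and Cidec has one 198 bases before. The other Cidec window, at the outermost start of the gene, held none. Both starts shown lie inside the annotated gene spans, whose 5′ ends are at 79732904 for Plin1 and 113435760 for Cidec. The Cidec core and the Plin1 core at 58 bases are thus also inside those spans.
Plin1: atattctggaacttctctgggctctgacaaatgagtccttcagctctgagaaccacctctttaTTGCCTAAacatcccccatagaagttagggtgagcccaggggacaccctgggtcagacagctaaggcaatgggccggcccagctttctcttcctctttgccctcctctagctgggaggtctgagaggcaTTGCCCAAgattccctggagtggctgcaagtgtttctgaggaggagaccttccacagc
Cidec: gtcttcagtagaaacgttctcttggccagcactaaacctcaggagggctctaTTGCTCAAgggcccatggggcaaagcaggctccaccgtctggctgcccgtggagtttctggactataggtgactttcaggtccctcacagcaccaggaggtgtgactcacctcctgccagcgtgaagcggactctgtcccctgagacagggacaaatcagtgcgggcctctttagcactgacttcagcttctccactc

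Of the genes that bring in and carry fatty acids, Fabp4, the fatty acid binding protein of fat cells, was at 7.04, 7.51, 6.73, 8.50 and 6.83 in controls and at 7.89, 7.56, 8.70 and 7.96 in Itgb1 knockouts. Itgb3 knockouts were at 7.44, 6.44, 8.10 and 6.24, while labelled double knockouts ran from 6.69 through a median of 7.66 to 8.31. The Itgb1 knockouts were all above 4 of the 5 controls, but control 4 exceeded 3 of them. Fabp4 was 0.71 higher in Itgb1 knockouts than in controls (SE 0.433, 1.63-fold, 95% interval -0.20 to 1.61, limma adjusted p = 0.982). It was 0.98 lower in Itgb3 knockouts than in Itgb1 knockouts by group mean (difference -0.98, SE 0.456, 95% interval -1.93 to -0.02), with 3 of 4 Itgb3 knockouts below every Itgb1 knockout. That difference had an unadjusted limma p of 0.0459 and an adjusted p of 0.996.

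Lipoprotein lipase, which frees fatty acids from lipoprotein triglyceride at the vessel wall, was at 5.98, 5.78, 5.94, 7.0 and 6.56 in controls and at 6.35, 6.15, 6.82 and 6.50 in Itgb1 knockouts. The Itgb3 knockouts were at 5.97, 5.47, 6.40 and 6.01, and the labelled double knockouts at 5.71 to 6.82 with a median of 6.40. Control 4 was the highest tumour, so no knockout tumour lay above all controls. A second Lpl probe set stayed between 2.54 and 3.00 on all arrays and was not used.

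Cd36, a fatty acid transporter and scavenger receptor, was at 6.96, 5.68, 6.89, 7.66 and 6.65 in controls and at 6.98, 6.74, 7.11 and 6.76 in Itgb1 knockouts. It was at 7.08, 6.02, 6.40 and 6.40 in Itgb3 knockouts and from 5.11 through 6.64 to 7.33 in labelled double knockouts. Its full span of 2.55 (5.87-fold) was the widest of the 9 genes, and the 4 Itgb1 knockouts lay close together within it. The Itgb1 knockout minus control difference was 0.13 (SE 0.380), and without the 4 arrays with muscle RNA it was -0.17.

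Pparg, the nuclear receptor at the head of the fat cell programme, was at 4.74, 4.48, 4.38, 4.52 and 4.04 in controls and at 4.30, 4.32, 4.73 and 4.68 in Itgb1 knockouts. Itgb3 knockouts were at 4.21, 4.32, 4.68 and 4.47 and labelled double knockouts between 3.87 and 4.90, with a median of 4.41. The 4 group means, from 4.38 to 4.51, differed by less than the SD within any group. Differences between group means made up 3.52% of the variance of Pparg, the lowest share of the 9 genes, against up to 24.9% for adiponectin. Means of small groups differ by scatter alone, and the share over all genes was not computed. These shares are therefore not read as an effect of genotype.

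**Figure D2:**
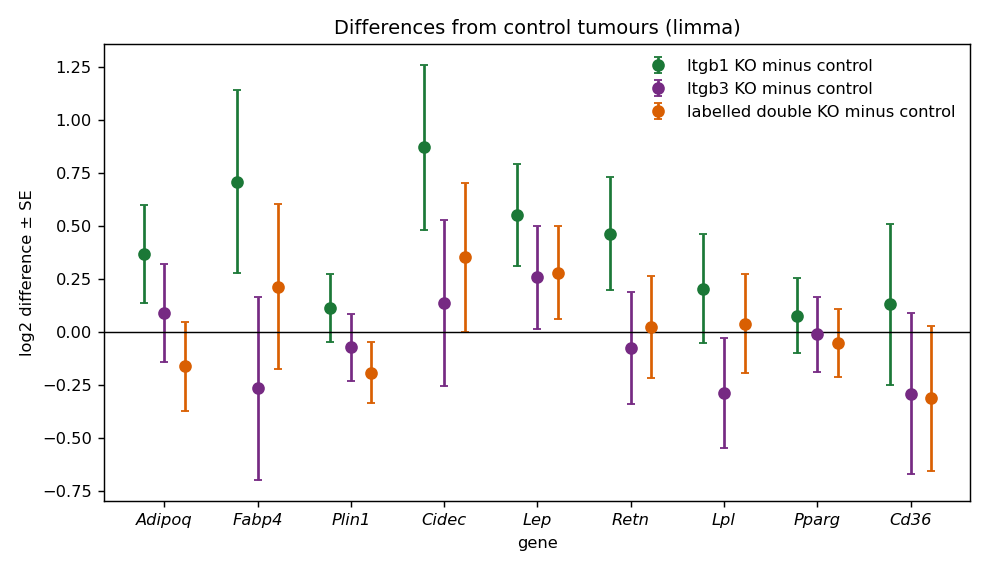
Differences in log2 level between each knockout group and the controls for the 9 measured genes, with standard errors from limma (4, 4 and 6 knockout tumours against 5 controls). The Itgb1 knockout points all lie above 0, from 0.07 for Pparg to 0.87 for Cidec, and none of the 7 genes past the filter passed the test in any of the 3 comparisons.

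Whether the adipocyte genes differed between the integrin genotypes was tested with limma over all 14230 genes, with Benjamini-Hochberg adjustment and a threshold of 0.05. None of the 7 tested adipocyte genes passed in any of the 7 comparisons. The targeted genes did not always pass either. Itgb3 stood at -1.12 in Itgb3 knockouts against control (SE 0.254, limma adjusted p = 0.723). Itgb1 stood at 1.34 in Itgb3 knockouts against Itgb1 knockouts (SE 0.223, limma adjusted p = 0.131). A gene could thus differ by more than 1 in those comparisons without passing. The Itgb1 knockouts had the highest group mean for each of the 9 measured genes. These genes varied together over tumours (median r of pairs 0.594), so they are not 9 independent observations. Averaged over the 9 genes, each centred on its own mean, Itgb1 knockouts 3 and 4 were at 0.65 and 0.46. Itgb1 knockouts 1 and 2 were at 0.09 and 0.04. Against control 0 of 7 passed, where 1 gene of all passed (0.00703%), Itgb1 itself (limma adjusted p = 0.0217). The 7 differences, which are not independent of each other, were all above 0, as were 55.9% of those of all genes tested. Their median was 0.20 against 0.02 over all genes, and 1 gene (Cidec) had an unadjusted p under 0.05 where 4.86% of all genes did. Their order was Cidec 0.87, Fabp4 0.71, Retn 0.46, Lpl 0.20, Cd36 0.13, Plin1 0.11 and Pparg 0.07. Cd36 and Pparg changed sign in 2 and 1 of 30 other settings, and the rest kept theirs.

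Against control, the Itgb3 knockouts showed 1 of 7 genes above 0 (Cidec) and a median difference of -0.08, beside -0.01 over all genes. Here 0 genes of all passed (0%), with 874 (6.14%) at an unadjusted p under 0.05 and none of the 7 among them. The labelled double knockouts had 4 of 7 genes above control and a median difference of 0.02. In that comparison 0.387% of all genes passed and 16.8% had an unadjusted p under 0.05, and the 7 adipocyte genes contributed 0 to either count. Plin1 had the smallest p of the 7 there, at a difference of -0.19 (SE 0.144, 95% interval -0.50 to 0.11, limma adjusted p = 0.517).

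Between knockout groups the contrast with Itgb1 knockouts gave the larger differences. All 7 genes were lower in Itgb3 knockouts than in Itgb1 knockouts, with a median difference of -0.49 against -0.03 over all genes, and again none passed, where 0 of all genes did (0%, with 4.55% at an unadjusted p under 0.05). Retn was at -0.54 (SE 0.281), Lpl at -0.49 (SE 0.272) and Cidec at -0.73 (SE 0.411). In labelled double knockouts all 7 were lower than in Itgb1 knockouts too, with a median of -0.44 against 0.01 over all genes, and 0 passed where 0.0211% of all genes did. Plin1, at -0.31 (SE 0.153, adjusted p = 0.432 by limma), had the smallest p of the 7. In these comparisons 42.8% and 51.1% of all genes were above 0, in that order. The comparisons share the Itgb1 knockout tumours and the 7 genes varied together, so agreement in sign between comparisons or genes is not independent.

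The labelled double knockouts against the Itgb3 knockouts was the comparison with the most changed genes, 2.87% of all, and still 0 of the 7 passed. Fabp4 was 0.48 higher (SE 0.416) and Lpl 0.33 higher (SE 0.248, adjusted p = 0.473 by limma), while Plin1 was at -0.12 and Cd36 at -0.02. The Fabp4 difference was 0.21 without Itgb3 knockout 4 and 0.83 without Itgb3 knockout 3, and that of Lpl was 0.15 with the mean of all its probe sets. The interaction asks whether the labelled double knockouts departed from the sum of both single differences. It lay below 0 for 6 of 7 genes with a median of -0.23 against 0.01 over all genes, and Cidec had the largest estimate at -0.65 (SE 0.542, limma adjusted p = 0.642). None passed, where 0 of all genes did (0%, with 1777 at an unadjusted p under 0.05). The 95% intervals of the differences from control held a change of 1 on the log2 scale in at least 1 comparison for Fabp4, Cidec, Lep, Retn and Cd36, so a change of that size lay within those intervals. For Adipoq, Plin1, Lpl and Pparg no interval reached 1.

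Tumours of the same genotype differed more in these genes than the genotypes did, and they differed in the same way for most of the genes. In the mean over the 9 genes, each centred on its own average, Itgb1 knockout 3 stood highest at 0.65, with 9 of 9 genes above their averages. Control 4 followed at 0.50 (9 of 9), then labelled double knockout 3 at 0.48 (8 of 9), Itgb1 knockout 4 at 0.46 (9 of 9), labelled double knockout 6 at 0.39 (9 of 9) and Itgb3 knockout 3 at 0.30 (8 of 9). Each of the 4 groups thus held at least 1 of the 6 highest tumours. At the other end, labelled double knockouts 4 and 5 stood at -0.55 and -0.50 and Itgb3 knockout 2 at -0.42, with 0 of 9 genes above their averages in each. The centred mean ran from -0.36 to 0.50 in controls, from 0.04 to 0.65 in Itgb1 knockouts, from -0.42 to 0.30 in Itgb3 knockouts and from -0.55 to 0.48 in labelled double knockouts. Of these extreme tumours, Itgb3 knockout 2 and labelled double knockout 5 are also the arrays with Dcn below 6, and Itgb3 knockout 3 is an array with muscle RNA. The part of Dcn or of muscle RNA in these levels was not tested.

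**Figure D3:**
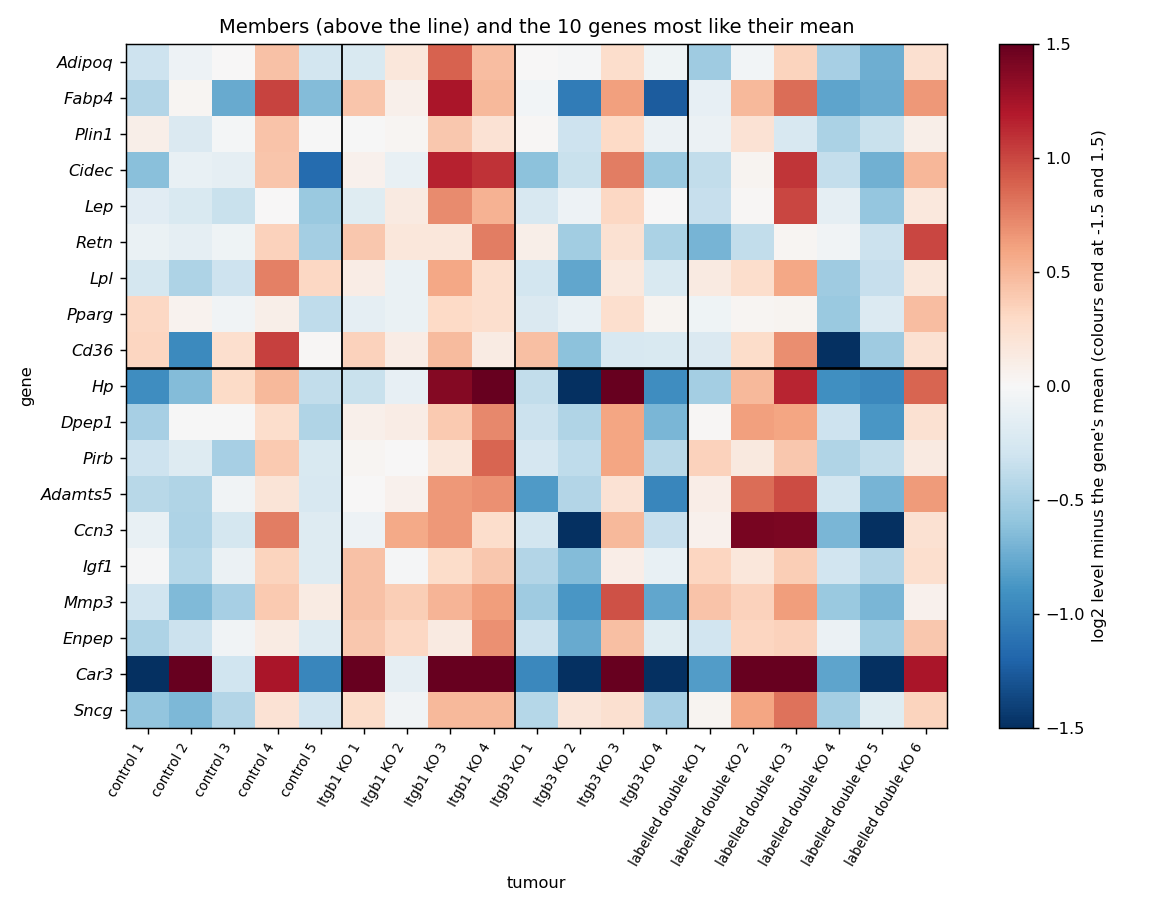
Log2 level of each adipocyte gene (above the black line) and of the 10 genes most like their mean (below it), minus the gene's own mean, in 19 tumours ordered by group; red is above and blue below the mean, and colours saturate at 1.5. Columns such as control 4, Itgb1 knockout 3 and labelled double knockout 3 are red over most genes, and labelled double knockouts 4 and 5 and Itgb3 knockout 2 are blue.

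The 36 pairs of the 9 genes were all positively correlated over the 19 tumours, as a description of arrays that share normalization and tissue makeup. Pearson's r ran from 0.34 (Plin1 with Lep) to 0.88 (Cidec with Lep), with a median of 0.594, and 26 pairs reached 0.5. The median Spearman rho was 0.583. Taking deviations from the group means left a median r of 0.578, so the covariation lay within genotypes. Without the 2 arrays farthest from the median it was 0.548. Cidec, Lep and Adipoq formed the tightest trio, with r of 0.88, 0.81 (Adipoq with Cidec) and 0.79 (Adipoq with Lep). Fabp4 followed Cidec (0.81) and Lpl (0.80). Resistin, at 0.36 with Lpl and with Cd36, and Cd36, at 0.37 with Lep and 0.38 with Cidec, stood further from the others.

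Each gene was also set against the mean of the other 8. Fabp4 had r = 0.872, adiponectin 0.834, Cidec 0.828, Lpl 0.751, leptin 0.737, Plin1 0.723, Pparg 0.660, resistin 0.623 and Cd36 0.609, over n = 19. Adiponectin, which never reached 4.38, thus tracked the others nearly as closely as Fabp4, so its low probe set values still ordered the tumours as the other genes did. No group of the 36 tested (9 genes in 4 groups) had a single outlying tumour by Dixon's criterion.

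**Figure D4:**
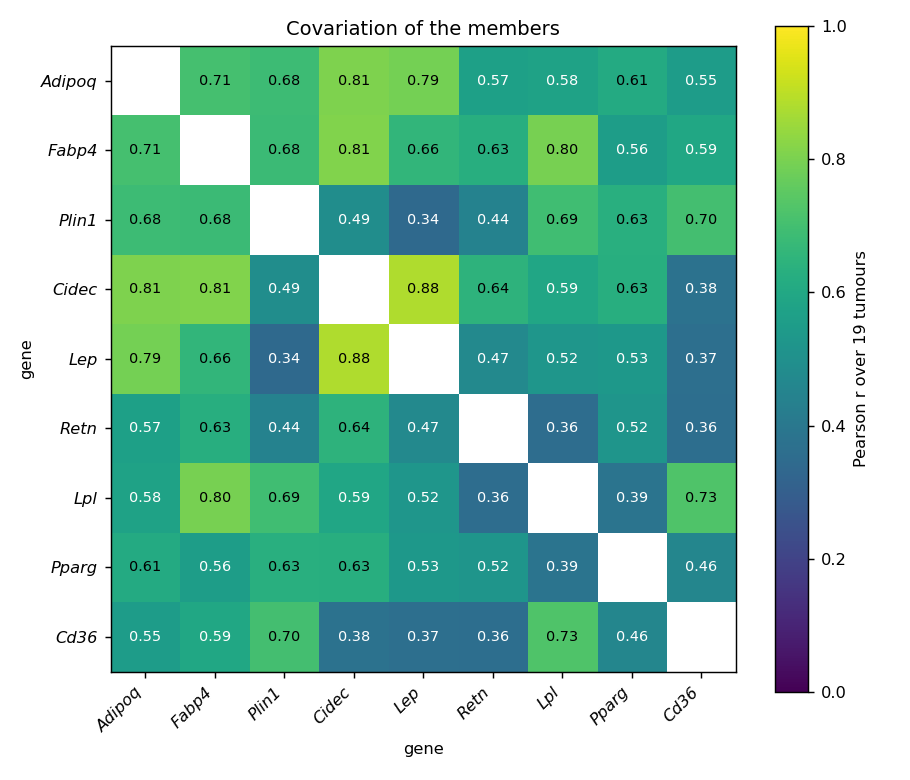
Pearson correlation over 19 tumours between each pair of the 9 measured adipocyte genes. Every pair is above 0, from 0.34 for Plin1 with Lep to 0.88 for Cidec with Lep.

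Lists of other genes of the fat cell and of its neighbours were read beside the 9 genes, as means of log2 levels over each list. The mean of 19 other mature adipocyte markers had r = 0.844 with the mean of the 9 genes (rho 0.818), and that of 16 other secreted adipokines had 0.827 (rho 0.816). Gene by gene both lists were less close. The median r was 0.24 for the mature markers and 0.19 for the adipokines, with 4 of 16 adipokines at 0.5 or more. It was 0.46 for fibroblast and 0.45 for endothelial markers, so the order of the list means did not hold gene by gene. A mean of log2 levels gives more weight to genes that range widely, such as Car3 (3.68 to 9.91). By list mean, preadipocyte and progenitor markers were at 0.644, endothelial markers at 0.564, fibroblast markers at 0.517 and macrophage markers at 0.344. The other fat cell lists were lower than the endothelial and fibroblast lists. Lipid droplet and lipolysis genes were at 0.417, fatty acid uptake genes at 0.355 and lipogenesis genes at 0.275. Adipogenic transcription genes were at 0.201 and receptor genes at -0.240. Skeletal muscle markers were at -0.00, milk protein and milk fat genes at -0.01 and luminal epithelial markers at -0.24. Thermogenic fat genes were at 0.05. Ucp1, the uncoupling protein that defines brown fat, was below 4.38 on all 19 arrays.

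**Figure D5:**
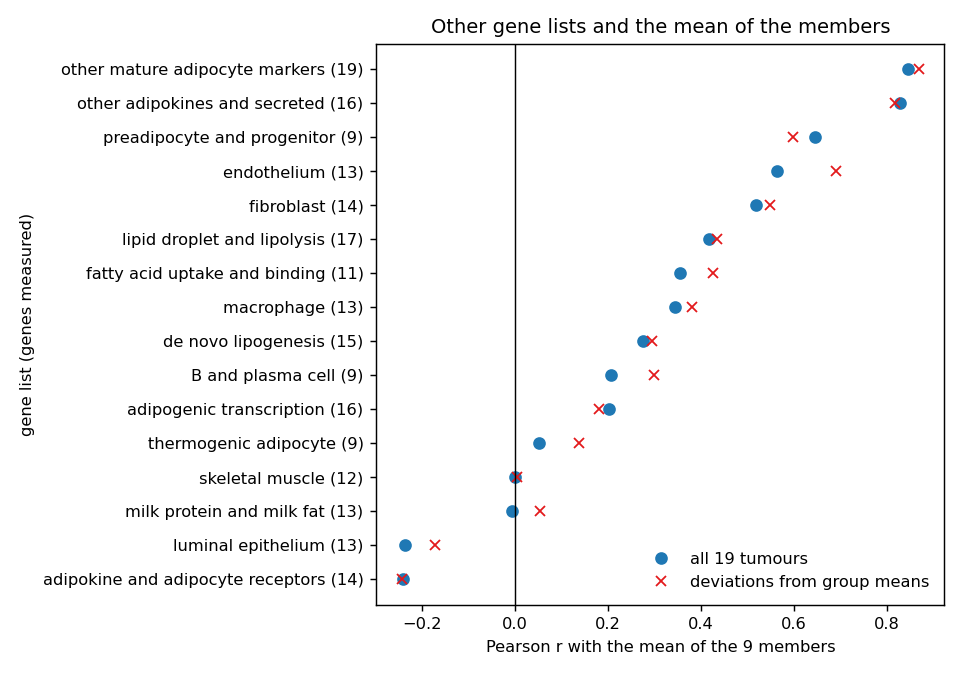
Pearson correlation, over 19 tumours, between the mean of the 9 adipocyte genes and the mean of each other gene list (circles), and the same for deviations from group means (crosses). Numbers in brackets are genes measured per list; other mature adipocyte markers (0.844) and other adipokines (0.827) lie highest, and skeletal muscle and milk genes lie at 0.

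Within the mature adipocyte list the agreement was uneven. Of 19 genes, 12 had r above 0 with the mean of the 9 and 7 reached 0.5, where 55.2% and 1.74% of 14223 other tested genes did. They were Car3 (carbonic anhydrase 3), Trarg1 (a GLUT4 trafficking regulator), Plin4 (a droplet coat protein), Pck1 (the glyceroneogenic carboxykinase), Aoc3 (an amine oxidase), Mrap and Nnat, with r from 0.53 to 0.74, Pck1 and Mrap being under the filter. Slc2a4, the insulin-responsive glucose transporter GLUT4, was at -0.04, Timp4 at -0.38, Ces1d at -0.53 and Adig at -0.11. Timp4 and Ces1d never reached 4.38 on any array. Of the 19 mature markers 13 passed the filter, which all 14223 other genes did. Among fibroblast markers 14 of 14 were above 0 and 6 reached 0.5. Among endothelial markers 13 of 13 were above 0 and 4 reached 0.5. Agreement with the 9 genes was thus not particular to the mature adipocyte list. Of 17 lipid droplet and lipolysis genes, 13 were above 0 and 1 (Plin4) reached 0.5, beside 55.2% and 1.74% of other genes. Abhd5 was at 0.49, Lipe at 0.45 and Bscl2 at 0.44. Pnpla2 (adipose triglyceride lipase) and Mgll were at 0.07 and -0.15, and Plin2, the droplet coat of most cell types, at 0.10. Of 14 receptor and insulin pathway genes 6 were above 0, beside 55.2% of other genes, and none reached 0.5, beside 1.74%. Receptors of the hormones themselves were mixed. For adiponectin, Adipor2 was at 0.44, Cdh13 at 0.28 and Adipor1 at -0.29. The leptin receptor Lepr, under the filter, was at -0.23.

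By gene, Lpl and Fabp4 had the highest r with the other stromal lists. Lpl had r = 0.71 with the fibroblast list, 0.60 with endothelium and 0.60 with macrophages, and Fabp4 had 0.64, 0.61 and 0.48. Adiponectin had 0.18, 0.30 and -0.00 with the same lists, and Pparg 0.15, 0.25 and 0.09. Cd36 had 0.33, 0.46 and 0.42, and leptin had 0.37, 0.45 and 0.13. The droplet gene Cidec had 0.45, 0.52 and 0.30, above Cd36 for the fibroblast and endothelial lists. Plin1 had 0.37, 0.21 and 0.22, and resistin 0.28, 0.35 and -0.05. These differences between genes were not tested, and the part of other cell types in the Lpl, Fabp4 and Cd36 levels was not tested. Resistin had r = -0.64 with the luminal list, the only value past 0.5 below 0 among the 9 genes and 6 cell type lists.

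By level, the fibroblast, endothelial and macrophage list means overlapped between groups. The milk protein and milk fat list did not in every case, at 6.26 to 6.83 in controls and 6.97 to 7.68 in Itgb3 knockouts. The fibroblast list mean ran from 6.61 to 7.48 in controls, 6.99 to 7.55 in Itgb1 knockouts, 5.26 to 7.43 in Itgb3 knockouts and 6.28 to 8.13 in labelled double knockouts. All 14 fibroblast genes were lower in Itgb3 than in Itgb1 knockouts, with a median difference of -0.85, beside the -0.49 of the 7 adipocyte genes, and none passed. In labelled double knockouts all 14 were higher than in Itgb3 knockouts by a median of 1.02, where the 7 adipocyte genes had a median of 0.10. Of the 14, 11 had an unadjusted limma p under 0.05, where 21.1% of all genes did, and none passed the adjusted threshold. In labelled double knockouts against Itgb1 knockouts the fibroblast median was 0.17 and that of the adipocyte genes -0.44. The endothelial list ran from 6.20 to 6.60 in Itgb1 knockouts and from 6.07 to 6.27 in Itgb3 knockouts.

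The 10 genes past the filter, outside the 9, whose levels were most like their mean over 19 tumours were picked by Pearson's r. Haptoglobin (Hp), an acute phase protein that fat also secretes, led at 0.888, from 4.43 in Itgb3 knockout 2 to 7.58 in Itgb3 knockout 3. Dpep1, a membrane dipeptidase, had 0.828, Pirb, an immune inhibitory receptor, 0.781, and Adamts5, a matrix protease, also 0.781. Ccn3 (0.767), the growth factor Igf1 (0.767), the matrix protease Mmp3 (0.763), the aminopeptidase Enpep (0.758), Car3 (0.737) and Sncg, gamma synuclein (0.733), completed the set. None passed in any of the 7 comparisons.

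Car3, an abundant enzyme of white fat that muscle also makes, spanned 3.68 to 9.91. It was at 5.37, 9.91, 7.23, 8.75 and 6.55 in controls and at 9.56, 7.39, 9.18 and 9.44 in Itgb1 knockouts. Itgb3 knockouts were at 6.56, 3.68, 9.71 and 4.21, and labelled double knockouts at 6.69, 9.46, 9.48, 6.73, 4.33 and 8.76. The 4 tumours with Ckm above 6 were at 9.46 or more, as was 1 other, labelled double knockout 3. Control 2 was the highest, although the 9 adipocyte genes there averaged -0.23. The part of muscle RNA in Car3 was not tested.

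Other genes of the same pathways passed only in the labelled double knockouts against the Itgb3 knockouts. Among 17 lipid droplet and lipolysis genes 1 rose and 0 fell, among 11 fatty acid uptake genes 0 rose and 1 fell, and among 14 lipogenesis genes 1 rose, against 2.87% of all genes. The 13 other mature adipocyte markers tested had 1 that rose, the same Cidea that is in the droplet list. Among 16 adipogenic transcription genes, 11 other adipokines, 9 receptor genes, 5 thermogenic genes and 8 progenitor genes none passed. In the other 6 comparisons 0 genes of any list passed. Among the macrophage markers, 2 of 13 rose in the same comparison: Adgre1 by 0.98 (SE 0.191, limma adjusted p = 0.0163) and Csf1r by 0.98 (SE 0.237, limma adjusted p = 0.0340). The Adgre1 call was lost without Itgb3 knockout 1 or 4 (limma adjusted p 0.0557 to 0.0567). The Csf1r call was lost without any 1 of Itgb3 knockouts 1, 2 and 4 and labelled double knockouts 1, 2, 3 and 5 (adjusted p 0.0503 to 0.114 by limma). Csf1r also missed the threshold with quantile normalization (0.89, adjusted p = 0.0625 by limma) and with only the groups compared in the fit (adjusted p = 0.0577). Each call named here, of these genes and of Cidea, Fabp3 and Fasn below, was also lost in fits to fewer tumours, without the 4 arrays with muscle RNA and without the 2 arrays with the lowest Dcn. The differences kept their direction there, at 0.98 and 0.94 for Adgre1, 1.10 and 0.91 for Csf1r, 1.45 and 1.11 for Cidea, -0.70 and -0.69 for Fabp3, and 0.84 and 0.94 for Fasn. In the same comparison all 14 fibroblast genes were higher (median 1.02) and 12 of 13 endothelial genes (median 0.33), with none past the adjusted threshold. At an unadjusted limma p under 0.05 were 11 and 5 of them, beside 21.1% of all genes. The part of these cell types in the named calls was not tested.

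The droplet gene was Cidea, a relative of Cidec that is made in brown fat and in mammary epithelium, where it takes part in milk fat secretion. It was at 5.0, 5.16, 5.32 and 5.38 in Itgb3 knockouts and from 5.52 through 6.86 to 6.94 in labelled double knockouts, above every Itgb3 knockout in 6 of 6. Cidea rose by 1.23 (SE 0.324, 2.34-fold, limma adjusted p = 0.0467), where Cidec stood at 0.22 (SE 0.376). Over tumours Cidea had r = -0.31 with the mean of the 9 adipocyte genes, so it did not vary with them. Its call was lost without any 1 of 13 arrays, with differences of 1.13 to 1.28 and limma adjusted p of 0.0513 to 0.129. These were controls 3 and 4, Itgb1 knockouts 2, 3 and 4, all 4 Itgb3 knockouts and labelled double knockouts 1, 3, 4 and 5. It was also lost without the intensity filter, with quantile normalization and with only the groups compared (limma adjusted p 0.0577, 0.0548 and 0.0562).

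The uptake gene was Fabp3, the heart and mammary relative of Fabp4. It was at 9.90, 9.97, 9.96 and 9.93 in Itgb3 knockouts and from 9.03 through 9.25 to 9.36 in labelled double knockouts, below every Itgb3 knockout in 6 of 6. Fabp3 fell by 0.70 (SE 0.167, 1.63-fold, limma adjusted p = 0.0320), where Fabp4 was 0.48 higher without passing. Leaving out any 1 of the 4 Itgb3 knockouts or of labelled double knockouts 1, 2 and 3 ended that call, with limma adjusted p of 0.0506 to 0.0852. The mean over all probe sets of the gene left a difference of -0.35, which did not pass (limma adjusted p = 0.0584). The lipogenesis gene was Fasn, fatty acid synthase, which rose by 0.79 (SE 0.209, limma adjusted p = 0.0464), from 8.49 ± 0.37 (SD, n = 4) to 9.28 ± 0.34 (n = 6). The Fasn call was lost without any 1 of the Itgb1 or Itgb3 knockouts or of labelled double knockouts 1, 2, 4 and 6, with limma adjusted p of 0.0515 to 0.141. It was also lost without the intensity filter, with quantile normalization and with only the groups compared (limma adjusted p 0.0575, 0.0863 and 0.0572). Fabp3 had r = 0.07 with the mean of the 9 genes.

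Promoter windows, 300 bases from 250 before to 50 after each annotated start, were found for 8 of the 10 listed genes, 11 windows in all. The C/EBP core, TTGCNNAA on either strand, occurred in 4 of the 11 (36.4%), 1 each for Lep, Cidec, Plin1 and Pparg, and in 10.8% of 32544 windows of all genes. The nuclear receptor motif AGGTCA occurred in 3 of 11 windows, from Cd36 and Pparg, and in 16.2% of all. Its direct repeat with 1 base between, the DR1 element that PPARG and RXR bind, occurred in 0 of 11 and in 0.0399% of all. The E box CANNTG was in 9 of 11 against 72.3% of all, and TATAAA in 1 of 11 against 13.6%. These are counts of letters in short windows, and bound sites were not measured. The trio with the highest pairwise correlations, Cidec, Lep and Adipoq, included 2 genes with the core and 1 without.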

How the data were processed

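The deposited table, made by the authors, holds normalized log2 intensities of 41345 probe sets on 19 arrays. Per the submitters' processing notes the tool was Affymetrix Expression Console, named without a version, and how background was corrected is not given in the sources used here. Values were used as deposited. Array medians were 4.32 to 4.48, and precision is set by how many arrays there are. Probe sets with 1 symbol were kept (23521; 1814 had several and 16010 none), and for 1082 genes with several the one with the highest mean. Genes reaching 4.38 on at least 4 arrays were tested with limma 3.58.1 in R 4.3.3: 1 fit, 4 group means, no covariates, 15 residual degrees of freedom, two-sided, Benjamini-Hochberg over 14230 genes. The test was checked on simulated data. The genes, lists, comparisons and thresholds were chosen with earlier results of these data known. Named genes are the listed ones, the 10 most like their mean, list genes that passed, and others named after their values were seen. Correlations are descriptions without p, although a permutation test was planned for the member mean. Motifs were counted in RefSeq promoter windows of GRCm38.p6, and no protein comparison was made. Alternatives covered normalization, filter, probe set choice, low values, array weights, eBayes settings, the groups fitted and left-out arrays.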

Additional observations from a re-analysis of the deposited data

How the results depend on the processing

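None of the 7 tested adipocyte genes passed in any of 30 other settings (29 for the interaction), 19 of them leaving out 1 array each and 2 chosen after seeing the data (without the 4 arrays with muscle RNA and without the 2 with the lowest Dcn). The smallest limma adjusted p of a member over those settings was 0.688 for Itgb1 knockout against control, 0.774 for Itgb3 knockout, 0.397 for labelled double knockout against control, 0.596 for Itgb3 against Itgb1 knockout, 0.178 and 0.29 for labelled double knockout against Itgb1 and Itgb3 knockout, and 0.401 for the interaction. Adiponectin and leptin, fitted without the filter in 26 settings, passed in none. Counts over all genes moved more. Labelled double knockout against Itgb3 knockout gave 408 genes, 56 without Itgb3 knockout 1, 459 without control 2, 24 without the muscle arrays and 1569 with array weights. Against control it gave 55, with 14 without control 1, 125 without labelled double knockout 5, 2 when only these groups were fitted and 115 without the lowest Dcn arrays. Against Itgb1 knockout it gave 3, from 0 to 24 with 1 array left out and 33 with array weights. The cause was not tested. No paired analysis was possible because the labels give no replicate numbers.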
